A study of Mus musculus with 6 samples.

Results

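The 4 Notch receptors of the mouse (Notch1, Notch2, Notch3 and Notch4) and 4 of their membrane-bound ligands (Dll1, Dll4, Jag1 and Jag2) were followed across the cell classes of adult brain vessels and the subventricular zone. The members were the rows with these gene symbols, 8 of the 32285 genes in the deposited matrices, and no measured value was used to choose them. Their unique molecular identifiers (UMIs, one per captured RNA molecule) were summed per library over endothelial, pericyte, astroglial, progenitor (cycling cells and neuroblasts) and oligodendrocyte cells. Cells were assigned to these classes by marker genes that include no Notch receptor or ligand and no Hes, Hey or Nrarp gene.

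A Notch receptor is a membrane protein that is bound by a Delta-like or Jagged ligand on a neighbouring cell. Binding exposes the receptor to cleavage, first by an ADAM protease and then by gamma-secretase, and the freed intracellular domain joins the DNA-binding protein Rbpj to switch on target genes such as those of the Hes and Hey families. In vessels the pathway is known for setting arterial identity and the choice between tip and stalk cells, and in mural cells for their maturation. In the subventricular zone it is known for keeping neural stem cells quiescent, and endothelial Notch ligands are among the contact signals described there.

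The 6 libraries form 3 groups of 2, all from mice aged 8 to 12 weeks. Mice of genotype Cx43ECiKO (ECiKO, titled Vecad) are labelled as connexin 43 knockouts in endothelial cells, those of genotype Cx43GlastiKO (GlastiKO, titled Glast) as knockouts in Glast-expressing cells, and control mice (titled CT) are Cx43flox/flox. The labels name floxed alleles for the controls only, and describe the drivers no further than by these titles. Cortex and subventricular zone were digested with collagenase and dispase, sorted without CD45 into CD31+ Glast- endothelial and Glast+ CD31- stem and progenitor cells, and sequenced with the 10x Chromium 3′ kit, and the number of mice per library and how the sorted fractions were divided are not given.

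The libraries held between 1735247 and 14859187 UMIs, and 6274 cells were used, 5723 of them (91.2%) in the 5 classes. No pair of libraries shared more than 1 cell barcode. Replicate 1 of every group was almost wholly endothelial (384, 444 and 704 cells in ECiKO, GlastiKO and control), and replicate 2 held the glia (151, 404 and 404 astroglial cells, and 1882, 592 and 441 oligodendrocytes, in the same order) with 20, 62 and 45 endothelial cells. Pericytes reached 20 cells only in GlastiKO replicate 1 (20) and control replicate 1 (22), and progenitors only in ECiKO replicate 2 (70) and GlastiKO replicate 2 (20), so 16 sums over a class and library were used. ECiKO replicate 2 was shallow, with a median of 786 UMIs per cell against 2792 to 10792 in the other 5 libraries. Levels are given as CPM, the UMIs of a gene scaled to 1000000 UMIs of the class sum, and "ECiKO" here means the libraries labelled so, because Gja1, the connexin 43 gene, goes against that label. In endothelial sums Gja1 stood at 221 and 214 CPM in ECiKO (replicates 1 and 2), 138 and 136 CPM in GlastiKO and 91.3 and 109 CPM in control. The log2 fold change was 1.21 ± 0.310 in ECiKO over control (SE, edgeR adjusted p = 0.0445, a call lost without ECiKO replicate 1 or either control library, with no low-count filter, with 4 markers per cell and in DESeq2), and astroglial Gja1 was 2522 CPM in GlastiKO and 2564 CPM in control. The sources used here do not give the deleted part of the gene, and 3′ tags outside it would still be counted, so this does not check the deletion.

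The marker lists were summed to describe the classes. The same lists assigned the cells, so these sums do not test the assignment. The 13 endothelial markers summed to between 27429 and 31612 CPM in endothelial sums, 761 to 767 CPM in pericyte sums and 8.43 to 11.0 CPM in astroglial sums. The 11 astroglial markers summed to 28158 to 29042 CPM in astroglial sums and at most 165 CPM in endothelial sums. In pericyte sums that list reached 5458 CPM in GlastiKO and 7723 CPM in control, while Aqp4, Aldoc and Gfap had 0 UMIs there. Endothelial sums of the glia-rich replicates 2 also carried 924 to 991 CPM of the oligodendrocyte list, against 401 to 548 CPM in replicates 1. Progenitor sums carried 269 CPM of the neuron list in ECiKO and 679 CPM in GlastiKO. They also carried 489 and 305 CPM of the oligodendrocyte list in the same order. The lists hold no member, so no member's own counts were used to choose the cells.

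The 8 genes lie on 4 chromosomes. On GRCm38 (GENCODE M21), Notch1 is at chr2:26457903-26516663 (minus strand), Notch2 at chr3:98013527-98150361 (plus), Notch3 at chr17:32120820-32166852 (minus) and Notch4 at chr17:34564268-34588503 (plus). Among the ligands, Dll1 is at chr17:15367354-15376872 (minus), Dll4 at chr2:119325784-119335962 (plus), Jag1 at chr2:137081456-137116644 (minus) and Jag2 at chr12:112907819-112929776 (minus). Exons of antisense genes overlap those of Notch1, Notch3, Dll1 and Dll4, and the same-strand model Gm42820 shares 541 exon bases with Notch2. How the submitters' counting treated strand is not stated in the sources used here, and whether reads of such partners entered these counts was not tested.

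The start-site regions of 3 members are shown because their RNA differed between the 2 vessel cell types: Dll4 and Notch4 were higher in endothelial sums and Notch3 in pericyte sums. The Notch4 difference rests on 9 pericyte UMIs, and its call (edgeR adjusted p = 0.0416) was lost under several settings given below. For Jag2, also high in endothelial sums, no bases were left in the window once its own exons were taken out. The sequences are those of RefSeq on GRCm38.p6, upstream of the annotated start, on the gene's strand. All 8 members had an entry in the RefSeq promoter table. Capitals mark GGAAG on either strand (CTTCC on the reverse), the core that ETS-family factors bind, a family known for its endothelial members.
Dll4, chr2:119325534-119325783, plus strand: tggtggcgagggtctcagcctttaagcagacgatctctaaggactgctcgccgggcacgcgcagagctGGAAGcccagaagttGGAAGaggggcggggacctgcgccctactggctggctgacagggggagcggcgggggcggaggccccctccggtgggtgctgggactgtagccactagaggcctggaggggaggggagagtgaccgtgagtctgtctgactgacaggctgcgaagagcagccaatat
Notch4, chr17:34564045-34564267, plus strand: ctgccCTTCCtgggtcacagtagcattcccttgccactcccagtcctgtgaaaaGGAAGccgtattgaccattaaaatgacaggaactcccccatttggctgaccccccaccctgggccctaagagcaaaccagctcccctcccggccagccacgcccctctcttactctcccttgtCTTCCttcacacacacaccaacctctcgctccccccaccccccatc
Notch3, chr17:32166891-32167140, minus strand: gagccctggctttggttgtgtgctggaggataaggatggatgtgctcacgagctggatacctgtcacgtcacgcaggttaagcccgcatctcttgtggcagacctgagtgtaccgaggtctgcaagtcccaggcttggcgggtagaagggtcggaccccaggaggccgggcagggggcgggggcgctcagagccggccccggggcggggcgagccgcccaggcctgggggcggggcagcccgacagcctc
GGAAG was present 2 times in the Dll4 window of 250 bases, 3 times in the Notch4 window of 223 bases and 0 times in the Notch3 window of 250 bases. It occurs in 64.1% of the 32851 RefSeq mouse promoter windows at 250 bases and in 59.1% at 223 bases. TGGGAA, the core bound by Rbpj, was searched on both strands and was in none of these 3 windows, and it is held by 21.6% of all windows of 250 bases. The 2 motifs share the letters GGAA and can overlap.

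**Figure D1:**
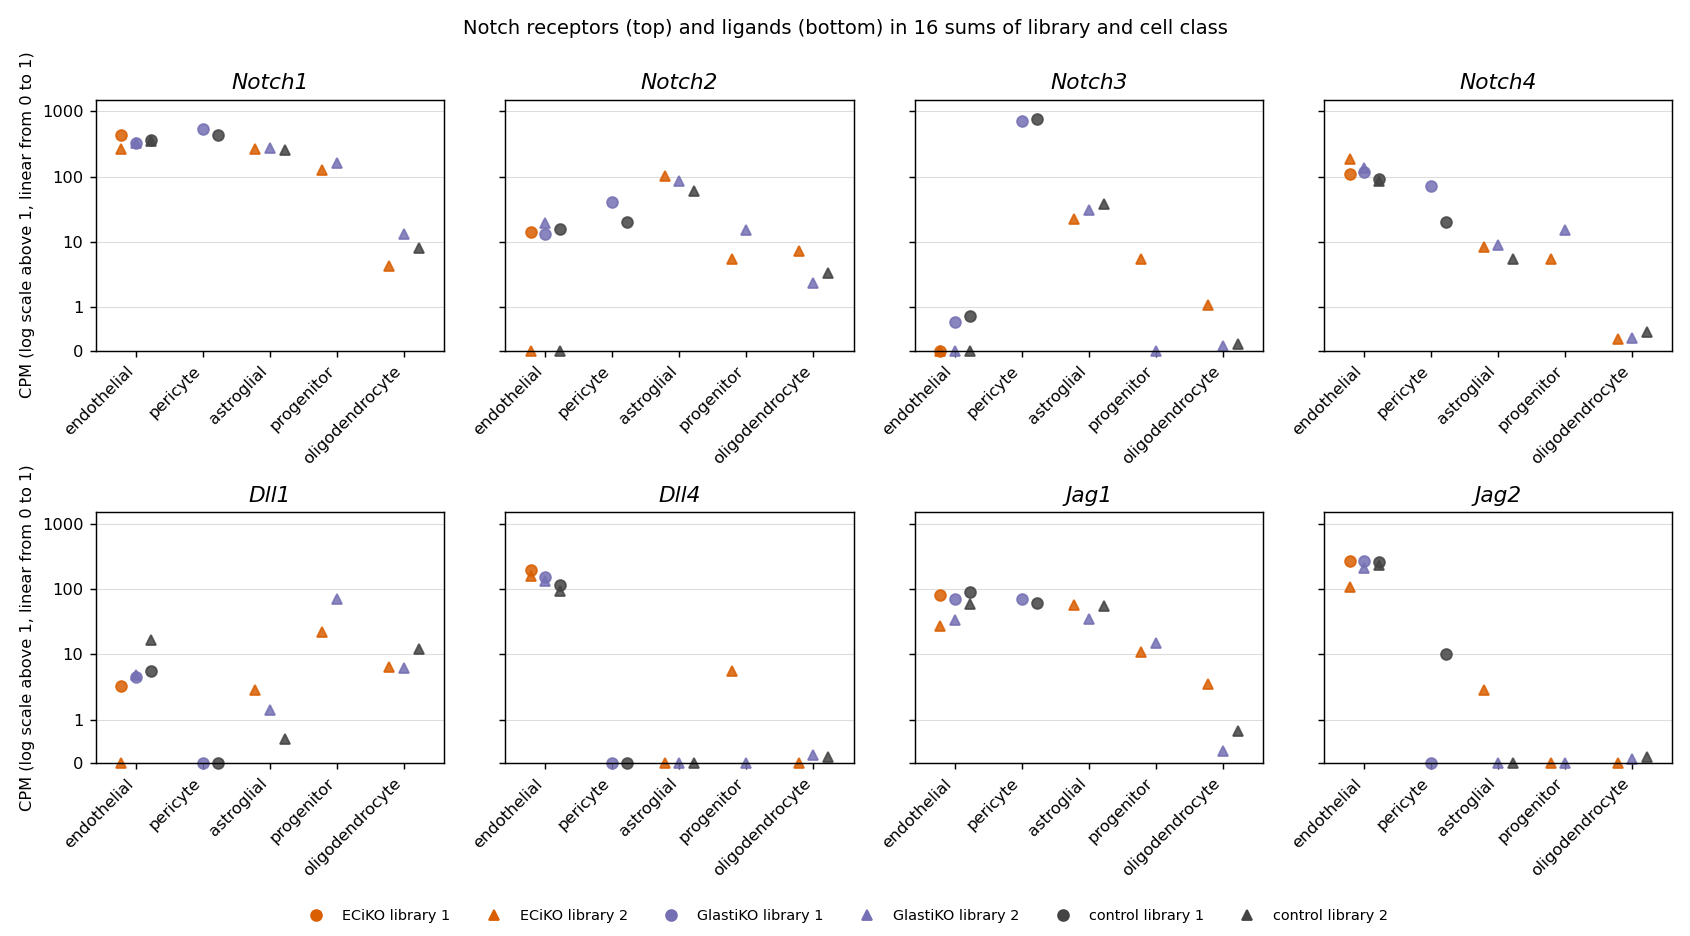
Levels of the 4 receptors and 4 ligands in CPM on a log axis (linear between 0 and 1), by cell class; each point is 1 library and the colours give the group. Dll4 and Jag2 reach 92.4 CPM or more in every endothelial sum and at most 10.1 CPM in any other, Notch3 is highest in the 2 pericyte sums (715 and 751 CPM), and Notch1 is above 100 CPM in every class but oligodendrocytes.

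Notch1 was the receptor shared by every class but oligodendrocytes. It had 436 and 268 CPM in ECiKO endothelial sums, 325 and 325 CPM in GlastiKO and 360 and 353 CPM in control. Pericyte sums held 542 CPM in GlastiKO and 426 CPM in control. Astroglial sums held 267 CPM in ECiKO, 272 CPM in GlastiKO and 257 CPM in control. Progenitor sums held less, 126 CPM in ECiKO and 160 CPM in GlastiKO. The 6 control progenitor cells, too few for a sum, held 15 Notch1 UMIs (381 CPM, 95% exact interval 213 to 629). That value lay above the 257 CPM of control astroglia, which its interval holds. Oligodendrocytes held only 4.27, 13.2 and 8.02 CPM in ECiKO, GlastiKO and control. The order of the means was pericyte (484 ± 81.7, SD, n = 2), endothelial (344 ± 55.2, n = 6), astroglial (265 ± 7.48, n = 3), progenitor (143 ± 23.6, n = 2) and oligodendrocyte (8.51 ± 4.50, n = 3). Neighbours among the first 3 did not pass the test: the log2 fold change was 0.38 for pericyte over endothelial (edgeR adjusted p = 0.323) and 0.02 ± 0.234 for endothelial over astroglial (edgeR adjusted p = 0.969). In the fit, which held no control progenitors, Notch1 was lower in progenitors than in astroglia by a log2 change of -1.24 ± 0.283 (SE, edgeR adjusted p = 5.75e-05). It was lower in oligodendrocytes than in astroglia by -4.66 ± 0.211 (edgeR adjusted p = 1.97e-106).

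Each contrast used edgeR's quasi-likelihood test with Benjamini-Hochberg adjustment over all 11711 genes of 1 fit in which the library was a block. With this block, the endothelial over astroglial difference came from the libraries numbered 2. These held 20, 62 and 45 endothelial cells in ECiKO, GlastiKO and control. The endothelial sums of replicates 1 entered that contrast only through the filter, scaling and shared spread. Classes differ in many of their genes. Of all genes tested, 38.8% passed between endothelial and astroglial sums, 22.1% between pericyte and endothelial, 67.9% between oligodendrocyte and astroglial and 46.5% between progenitor and astroglial. Of the 8 members, 5, 4, 6 and 5 passed in the same order. Those shares are close to the background in the oligodendrocyte contrast, so the identity of the members and the size of the differences say more than their number. The median log2 difference over the members was 1.30, -0.85, -4.16 and -1.52, beside -0.13, -0.32, -0.10 and -0.48 over all genes tested. In simulated data the endothelial over astroglial test recovered 17% of 2-fold and 71% of 4-fold changes. A difference that did not pass is therefore no evidence of equal levels.

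Notch2, a receptor known in neural stem cells and astrocytes, was higher in astroglia than in endothelial cells, progenitors and oligodendrocytes. Astroglial sums held 101 CPM in ECiKO, 85.9 CPM in GlastiKO and 60.9 CPM in control. Endothelial sums held 14.1 and 0 CPM in ECiKO, 12.9 and 19.4 CPM in GlastiKO and 15.6 and 0 CPM in control, all below the lowest astroglial sum. Notch2 was lower in endothelial than in astroglial sums by a log2 change of -3.03 ± 0.591 (SE, edgeR adjusted p = 1.96e-06), and this became -9.72 without GlastiKO replicate 2, whose 4 UMIs were then gone. It was also lower in progenitors, at 5.50 CPM in ECiKO and 15.0 CPM in GlastiKO (log2 change -3.53 ± 0.584 against astroglia, edgeR adjusted p = 1.15e-08). In oligodendrocytes it stood at 7.21, 2.38 and 3.35 CPM in ECiKO, GlastiKO and control (-4.22 ± 0.244, edgeR adjusted p = 2.01e-65). Pericyte levels of 40.9 CPM in GlastiKO and 20.3 CPM in control rest on 4 and 2 UMIs and were not called against endothelial sums (edgeR adjusted p = 0.436). Pericytes were not tested against astroglia. The 95% exact interval of the GlastiKO pericyte sum, 11.1 to 105 CPM, held all 3 astroglial values.

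Notch3, the receptor of vascular mural cells, was concentrated in pericytes. Pericyte sums held 715 CPM in GlastiKO (70 UMIs) and 751 CPM in control (74 UMIs), whereas the 6 endothelial sums held 3 UMIs in all and at most 0.801 CPM. Within a library, pericytes exceeded endothelial cells 1106-fold in GlastiKO replicate 1 (95% exact interval 192 to 44284, counting error only) and 938-fold in control replicate 1 (251 to 7887). The fitted log2 difference was 9.71 ± 0.461 (SE, edgeR adjusted p = 1.15e-95). The 4 pericyte sums too small for the fit, with 4 to 16 cells, held 630 and 655 CPM in ECiKO replicates 1 and 2, 777 CPM in GlastiKO replicate 2 and 1109 CPM in control replicate 2. The 95% exact interval of that last sum, 802 to 1493 CPM, lay above both fitted sums, and those of the other 3 held both. Smooth muscle markers summed to 2014 and 2151 CPM in the GlastiKO and control pericyte sums, against 40358 to 42214 CPM for the pericyte list, and the part of smooth muscle cells in the Notch3 level was not tested.

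Astroglia also carried Notch3, though at a lower level, with 22.5 CPM in ECiKO, 31.0 CPM in GlastiKO and 38.4 CPM in control. Endothelial sums were lower than these by a log2 change of -8.88 ± 2.05 (SE, edgeR adjusted p = 7.58e-05), a fitted value set by near-empty endothelial sums and no bound. Oligodendrocytes were lower than astroglia by -6.34 ± 0.420 (edgeR adjusted p = 2.57e-50), with 1.07, 0.0952 and 0.146 CPM in ECiKO, GlastiKO and control. Leaving out 1 library moved that difference to -7.43 (without ECiKO replicate 2) and -5.75 (without GlastiKO replicate 2). The progenitor difference, -3.87 ± 1.05 (edgeR adjusted p = 0.000831), rested on sums of 1 and 0 UMIs in ECiKO and GlastiKO. It was lost without GlastiKO replicate 2 (-2.75, edgeR adjusted p = 0.126) and became -8.98 without ECiKO replicate 2.

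Notch4, the receptor known for its endothelial expression, was the second receptor of endothelial cells. It stood at 110 and 188 CPM in ECiKO, 119 and 136 CPM in GlastiKO and 90.5 and 84.0 CPM in control endothelial sums, and at 8.43, 9.07 and 5.49 CPM in the astroglial sums of ECiKO, GlastiKO and control. Every endothelial sum was higher than every astroglial one, by 22.3-, 15.0- and 15.3-fold within the ECiKO, GlastiKO and control libraries numbered 2. The fitted log2 difference was 3.78 ± 0.415 (SE, edgeR adjusted p = 1.25e-18). Oligodendrocytes held at most 0.437 CPM and were lower than astroglia by -4.10 ± 0.551 (edgeR adjusted p = 3.90e-13). Pericytes held 71.5 CPM in GlastiKO (7 UMIs) and 20.3 CPM in control (2 UMIs), lower than endothelial sums by -1.31 ± 0.501 (edgeR adjusted p = 0.0416). That call was lost with DESeq2's size factors (-1.12, edgeR adjusted p = 0.104) and without ECiKO replicate 1 (-1.27, 0.0502), GlastiKO replicate 1 (-2.35, 0.0696), control replicate 1 (-0.94, 0.418) or control replicate 2 (-1.27, 0.0609), the numbers after the commas being edgeR adjusted p. Endothelial markers summed to 767 and 761 CPM in these GlastiKO and control pericyte sums, and their part in the 9 Notch4 UMIs was not tested.

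Among the ligands, Dll4 and Jag2 were nearly confined to endothelial cells in these sums. Dll4, the Delta-like ligand of arterial and tip endothelial cells, had 199.5 and 161 CPM in ECiKO, 155 and 131 CPM in GlastiKO and 116 and 92.4 CPM in control endothelial sums. It had 0 UMIs in all 3 astroglial sums and in both pericyte sums, 1 UMI in the progenitors of ECiKO and 3 UMIs in all oligodendrocyte sums, which hold 21105909 UMIs. Against a floor of 3 UMIs per astroglial sum, Dll4 was at least 19.1-fold higher in endothelial cells in ECiKO replicate 2, at least 91.5-fold in GlastiKO replicate 2 and at least 56.2-fold in control replicate 2. Against the same floor, pericytes were at least 5.04-fold lower than endothelial cells in GlastiKO replicate 1 and at least 3.80-fold lower in control replicate 1. Both contrasts passed (edgeR adjusted p = 2.79e-35 for endothelial over astroglial and 3.22e-09 for pericyte over endothelial).

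Jag2, a Jagged ligand, was the most abundant of the 4 ligands by UMI count in 5 of the 6 endothelial sums. It had 267 and 107 CPM in ECiKO, 274 and 209 CPM in GlastiKO and 260.3 and 235 CPM in control endothelial sums. Outside them it was all but absent from the counts, with 1 UMI in the astroglial sum of ECiKO and 0 in the other astroglial sums, 0 UMIs in GlastiKO pericytes and 1 in control pericytes, 0 UMIs in progenitors and 2 UMIs in all oligodendrocyte sums. Endothelial cells exceeded astroglia at least 146-fold in GlastiKO replicate 2 and at least 143-fold in control replicate 2, against the floor of 3 UMIs. In ECiKO replicate 2 the ratio was 38.1 (95% exact interval 3.77 to 1878, from 4 and 1 UMIs). The fitted log2 difference was 9.22 ± 0.570 (SE, edgeR adjusted p = 5.36e-57), and between 8.27 and 11.63 with 1 library left out. Pericytes were lower than endothelial cells by -5.80 ± 0.704 (edgeR adjusted p = 5.94e-15), which ranged to -11.91 without control replicate 1, the library that held the pericytes' 1 UMI. In GlastiKO replicate 1 pericytes were at least 8.93-fold lower.

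Jag1, the other Jagged ligand, was found in vessel cells and in astroglia. Endothelial sums held 80.6 and 26.8 CPM in ECiKO, 69.9 and 34.0 CPM in GlastiKO and 90.9 and 58.8 CPM in control. Pericyte sums held 71.5 CPM in GlastiKO and 60.9 CPM in control, and astroglial sums 56.2, 34.8 and 54.9 CPM in ECiKO, GlastiKO and control. These 3 classes overlapped, and no difference passed between endothelial and astroglial (log2 -0.31 ± 0.441, edgeR adjusted p = 0.639) or pericyte and endothelial sums (-0.39, edgeR adjusted p = 0.650). A 2-fold difference between endothelial and astroglial sums would mostly be missed by this test. With no library block that difference changed sign and passed, as given below. Oligodendrocytes held 3.47, 0.286 and 0.729 CPM in ECiKO, GlastiKO and control, lower than astroglia by -5.23 ± 0.308 (edgeR adjusted p = 3.09e-63), or -6.14 without ECiKO replicate 2. Progenitors held 11.0 CPM in ECiKO and 15.0 CPM in GlastiKO. Their difference from astroglia, -2.27 ± 0.618 (edgeR adjusted p = 0.000867), was lost without ECiKO replicate 2 (-1.59, edgeR adjusted p = 0.130).

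Dll1, the Delta-like ligand known in activated stem cells and newborn neurons of this niche, was highest in progenitors. They held 22.0 CPM in ECiKO (4 UMIs) and 69.9 CPM in GlastiKO (14 UMIs), and the 6 control progenitor cells, too few for a sum, held 5 UMIs (127 CPM). Oligodendrocytes held 6.40 CPM in ECiKO, 6.09 CPM in GlastiKO and 12.2 CPM in control, whereas the astroglial sums held 2.81, 1.43 and 0.549 CPM, from 5 UMIs in all. Endothelial sums held 28 Dll1 UMIs in all, at 3.33 and 0 CPM in ECiKO, 4.53 and 4.85 CPM in GlastiKO and 5.61 and 16.8 CPM in control, which overlapped the oligodendrocyte sums. Endothelial over oligodendrocyte ratios within GlastiKO and control replicate 2 were 0.80 and 1.37, with both 95% exact intervals holding 1. The endothelial difference from astroglia did not pass (log2 2.59 ± 1.40, SE, edgeR adjusted p = 0.137). Dll1 was higher than in astroglia in progenitors by a log2 difference of 5.30 ± 0.828 (SE, edgeR adjusted p = 1.36e-09) and in oligodendrocytes by 3.03 ± 0.623 (edgeR adjusted p = 2.86e-06). Within GlastiKO replicate 2 the progenitor ratio was 48.8 (95% exact interval 13.6 to 265) and the oligodendrocyte ratio 4.26 (1.39 to 21.2). Within ECiKO replicate 2 they were 7.83 (0.77 to 385) and 2.28 (0.37 to 93.7), both intervals holding 1. Dll1 did not pass the low-count filter in the fits without ECiKO replicate 1 or without control replicate 2, and pericytes held none.

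**Figure D2:**
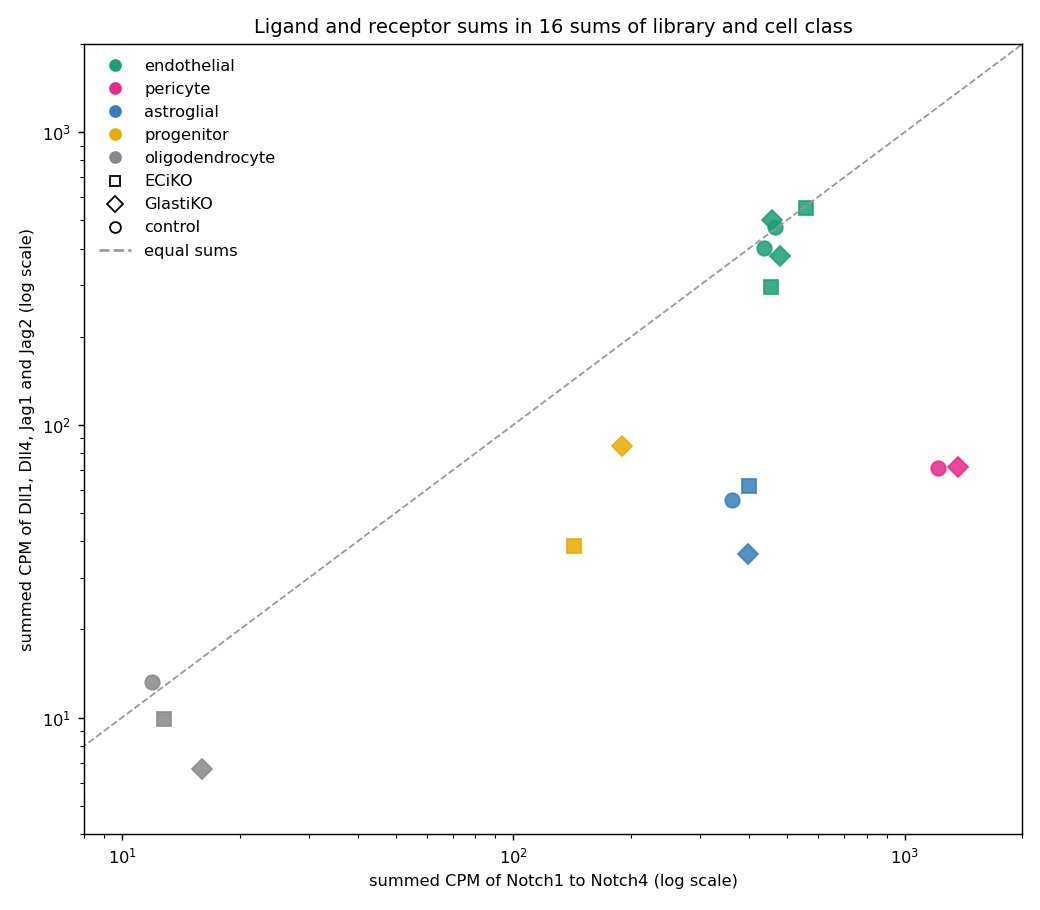
Summed CPM of the 4 receptors (x axis) against summed CPM of the 4 ligands (y axis), both on log scales, with 1 point per class and library; the dashed line marks equal sums. Endothelial sums lie near the line, at 295 to 550.3 CPM of ligand, oligodendrocyte sums lie far lower on both axes, at 6.67 to 13.3 CPM of ligand, and pericyte and astroglial sums lie below it, with 36.3 to 71.5 CPM of ligand.

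Summed over members, endothelial cells held ligands and receptors in like amounts, while pericytes and astroglia held mostly receptors. The sums compare UMIs of different genes: the 3′ kit captures one tag per molecule whatever the transcript's length, and capture that differs between genes was not corrected. Ligands summed to 550.3 and 295 CPM in ECiKO, 503 and 379 CPM in GlastiKO and 472 and 403 CPM in control endothelial sums. Receptors summed to 559 and 455 CPM, 458 and 480.4 CPM, and 467 and 437 CPM in the same groups. Ligands were thus 39.3 to 52.4% of the endothelial member UMIs, with no group set apart. In pericytes they were 4.96% in GlastiKO and 5.51% in control, and in astroglia 13.4% in ECiKO, 8.35% in GlastiKO and 13.3% in control. Oligodendrocytes, whose ligands summed to only 6.67 to 13.3 CPM, also had a mixed share, with 43.5% in ECiKO, 29.4% in GlastiKO and 52.6% in control. In progenitors the share was 21.2% in ECiKO and 30.9% in GlastiKO.

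The classes also differed in which member carried the sum. In endothelial cells Jag2 made up 36.4 to 58.3% of ligand UMIs and Dll4 most of the rest. The Dll4 share was 36.3 and 54.5% in ECiKO, 30.8 and 34.6% in GlastiKO and 24.5 and 22.9% in control, and the ECiKO replicate 2 value rests on 11 ligand UMIs. Jag1 made up 90.9 to 99.0% of the astroglial ligand UMIs and Dll1 64.9 to 92.3% of the oligodendrocyte and 57.1 to 82.4% of the progenitor ligand UMIs. Among receptors, Notch1 was 58.8 to 80.8% of the endothelial and 66.9 to 71.1% of the astroglial UMIs. Notch3 was 52.2% of the pericyte receptor UMIs in GlastiKO and 61.7% in control.

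UMIs of ligands and receptors were also counted in single cells. In replicate 1, 51.3% of endothelial cells in ECiKO, 52.0% in GlastiKO and 50.6% in control held at least 1 UMI of a receptor and 1 of a ligand. If both were spread independently over cells, 43.8, 46.3 and 47.1% would be expected, and cells of greater depth hold more of both. Oligodendrocytes, with at most 13.2 CPM of any member, held both in 0.106% of cells in ECiKO, 2.70% in GlastiKO and 2.72% in control. Their medians were 781, 17555.5 and 15773 UMIs per cell, against 2789, 3199.5 and 3408.5 UMIs in those endothelial cells. No correction was made for free RNA in the droplets. After each cell was thinned to 1000 UMIs, Jag2 was seen in 25.7% of 323 endothelial cells in ECiKO, 21.6% of 417 in GlastiKO and 24.9% of 658 in control. Dll4 was seen in 15.2, 12.7 and 11.4% of the same cells, with 95% exact intervals of 11.4 to 19.6, 9.67 to 16.3 and 9.07 to 14.1%. Unthinned, the Jag2 shares were 47.9, 49.5 and 51.3% and the Dll4 shares 32.0, 30.4 and 25.7%. Neither gene was seen in 74, 394 or 389 thinned astroglial cells of ECiKO, GlastiKO and control, which allows up to 4.05, 0.761 and 0.771% of cells with a UMI at this depth and sets no limit on cells that express the gene. Notch3 was seen in 40.0% of 20 thinned pericytes in GlastiKO and 35.0% of 20 in control, and in 0 of 417 and 0 of 658 endothelial cells of those libraries.

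Along the vessel, the Jagged ligands were higher in arterial cells. Endothelial cells were split by arterial, capillary and venous markers that include no Notch receptor or ligand and no Hes, Hey or Nrarp gene. Only 1 library reached 20 arterial cells (7 in ECiKO, 19 in GlastiKO and 31 in control replicate 1), so a minimum of 5 cells was set after the data had been seen. Jag1 had 97.1 CPM in arterial against 80.4 CPM in other endothelial cells of ECiKO, 175 against 64.2 CPM in GlastiKO and 295 against 79.8 CPM in control. Jag2 had 437 against 264 CPM in ECiKO, 686 against 251 CPM in GlastiKO and 520 against 246 CPM in control. Both were higher in the arterial cells of all 3 libraries. The log2 difference was 1.48 ± 0.385 for Jag1 (SE, edgeR adjusted p = 0.00646) and 1.08 ± 0.323 for Jag2 (edgeR adjusted p = 0.0345), in a contrast in which 2.75% of 7611 genes passed. Both calls were lost without GlastiKO replicate 1 (1.42, edgeR adjusted p = 0.323, and 0.80, edgeR adjusted p = 0.857) and without control replicate 1 (0.97 and 0.98, both edgeR adjusted p = 0.9996). They were kept with a looser gate of 1 arterial marker and 20 cells per sum, at 1.78 and 1.33, whereas the Jag2 call was lost with no filter on low counts (0.95, edgeR adjusted p = 0.159).

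**Figure D3:**
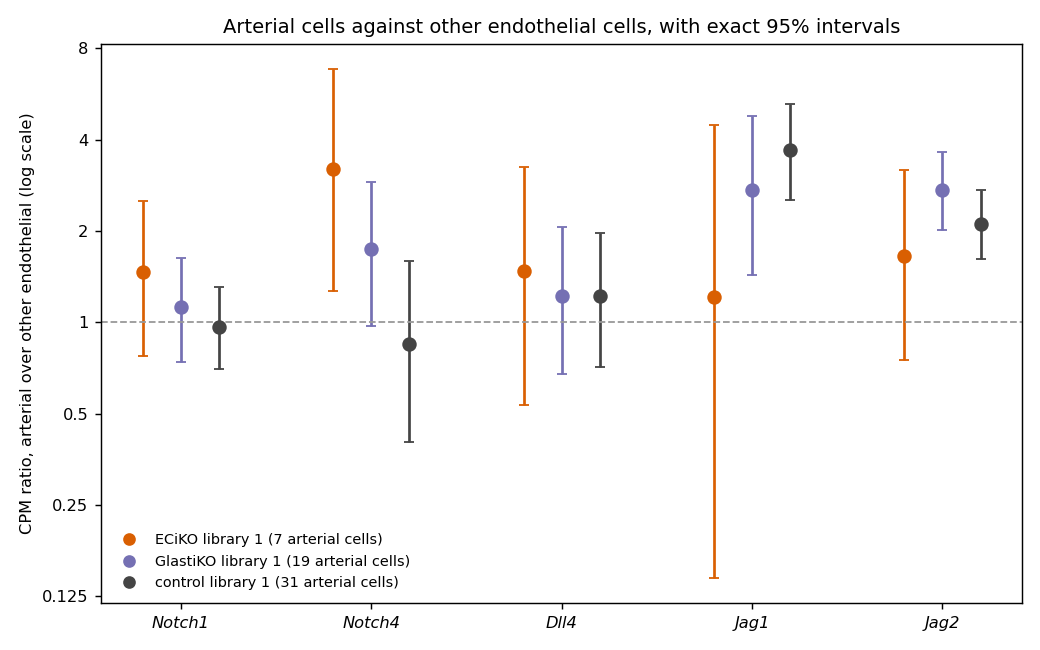
Ratio of the CPM in arterial cells to that in the other endothelial cells of the same library (log axis), for 5 members in the 3 libraries numbered 1; bars are 95% exact intervals for counting error and the line marks 1. For Jag1 and Jag2 the intervals lie above 1 in GlastiKO (from 1.43 and 2.02) and control (from 2.54 and 1.62) and hold 1 in ECiKO, which had 7 arterial cells.

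Dll4, known from arterial endothelium, did not pass between arterial and other endothelial cells. Its arterial level was 291 CPM in ECiKO, 187 CPM in GlastiKO and 140 CPM in control, against 198, 153 and 114 CPM in the other endothelial cells (log2 0.29, edgeR adjusted p = 0.946). Capillary cells, the bulk of that second set, held 216, 173 and 122 CPM in ECiKO, GlastiKO and control. Venous cells held 0 UMIs in ECiKO (10 cells), 1 UMI in GlastiKO (10 cells) and 1 UMI in control (22 cells), so the upper 95% bound of 63.1 CPM in control lay under the lower bound of 106 CPM in its capillary cells. Notch1 (0.10, edgeR adjusted p = 0.984) and Notch4 (0.57, edgeR adjusted p = 0.789) did not pass in the arterial contrast, although Notch4 in ECiKO had a ratio of 3.21 (95% exact interval 1.27 to 6.82) from 7 arterial UMIs. Notch2, Notch3 and Dll1 had too few UMIs to be tested there.

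**Figure D4:**
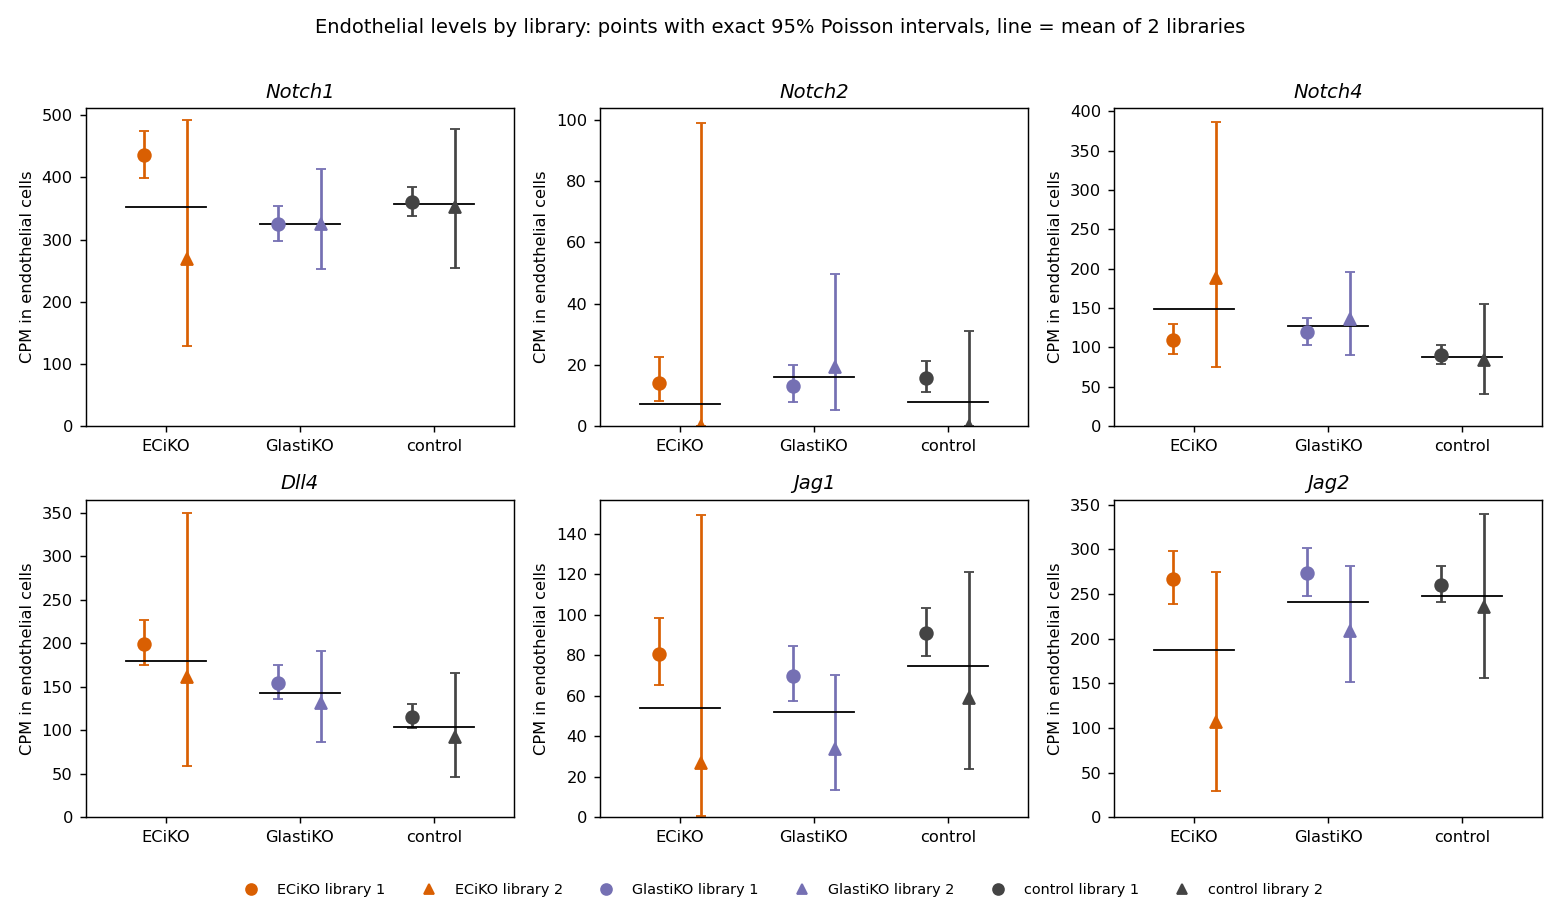
Endothelial CPM of the members in the 6 libraries, by group; points are libraries (replicates 1 and 2 by symbol) and bars are 95% exact Poisson intervals for counting error. Dll4 and Notch4 lie higher in both ECiKO libraries (161 to 199.5 and 110 to 188 CPM) and both GlastiKO libraries (131 to 155 and 119 to 136 CPM) than in both control libraries (92.4 to 116 and 84.0 to 90.5 CPM), and neither passed the test; 11.7% of all genes tested separated upward in this way in ECiKO and 11.8% in GlastiKO.

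Between the groups, no member changed in endothelial cells at an adjusted p of 0.05. The study's title asks about connexin 43 between vessels and stem cells, and each knockout was compared with control in the 6 endothelial sums. Of 8617 genes tested, 0.232% passed in ECiKO over control and 0.313% in GlastiKO over control, and 0 of the 6 members tested did. At an unadjusted p under 0.05, edgeR gave 139 and 160 genes, 1 member (Dll4) in ECiKO and none in GlastiKO, and DESeq2 called no member either. In simulated data of these depths the test recovered 87% of 4-fold but only 17% of 2-fold changes in ECiKO over control, so a 2-fold difference would mostly be missed at this depth. The 2 comparisons share the control libraries. The labels call the libraries biological replicates, and the p-values rest on a spread pooled over all genes.

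Dll4 stood nearest to a difference in ECiKO, and Notch4 in GlastiKO (edgeR unadjusted p = 0.088). Dll4 averaged 180 ± 27.4 CPM in ECiKO, 143 ± 16.7 CPM in GlastiKO and 104 ± 16.5 CPM in control (SD, n = 2 each). The values of both knockout groups lay above both control values, given above, as they did for Notch4. Such a separation of 2 libraries from 2 was common: of the 8617 genes tested, 11.7% lay above both control libraries and 18.8% below them in ECiKO, and 11.8% and 17.4% in GlastiKO, so the separation says little about these 2 members. The log2 fold change was 0.81 ± 0.305 in ECiKO (SE, unadjusted p = 0.00813, edgeR adjusted p = 0.9998) and 0.45 ± 0.290 in GlastiKO (unadjusted p = 0.123, edgeR adjusted p = 0.9996). In ECiKO it was 0.79 between the libraries numbered 1 and 0.80 between those numbered 2, and 0.83 without endothelial cells that carry at least 2 of Plvap, Esm1 and Igfbp3. It was 0.28 without ECiKO replicate 1, which holds 240 of the group's 246 Dll4 UMIs, and 1.16 without control replicate 1. The edgeR or DESeq2 adjusted p over all settings lay between 0.464 and 1.

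Notch4 followed the same order, at 149 ± 55.0 CPM in ECiKO, 127 ± 11.9 CPM in GlastiKO and 87.3 ± 4.57 CPM in control (SD, n = 2 each). Its log2 fold change was 0.41 ± 0.327 in ECiKO and 0.51 ± 0.301 in GlastiKO (SE, edgeR adjusted p = 0.9998 and 0.9996), and the 7 UMIs of ECiKO replicate 2 set its highest value. Jag1 had log2 fold changes of -0.14 ± 0.333 in ECiKO and -0.43 ± 0.313 in GlastiKO (SE, edgeR adjusted p = 0.9998 and 0.9996), the second about as large as those of Notch4, and both changed sign without control replicate 1 (0.47 and 0.18). The other members tested had log2 fold changes nearer to 0, of 0.14 and -0.09 for Notch1, -0.07 and 0.03 for Jag2 and -0.04 and 0.06 for Notch2 in ECiKO and GlastiKO over control. Notch3 and Dll1 were too low in endothelial cells to enter the test. Control replicate 1 also held 31 endothelial cells with at least 2 of Plvap, Esm1 and Igfbp3, of which the ECiKO libraries held none. In them Dll4 stood at 164 CPM (95% exact interval 109 to 237), against 112 CPM (99.0 to 127) in the other 673 endothelial cells of that library. These Dll4 intervals overlapped. Jag2 stood at 64.4 CPM (32.1 to 115) against 275 CPM (254 to 297), and Jag1 at 17.6 CPM (3.62 to 51.3) against 96.3 CPM (84.1 to 110).

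Glial members could be compared in 1 library per group only, without a test, and both knockouts were set against the same control library. In astroglia, Notch2 was 1.66 times the control level in ECiKO (95% exact interval 1.11 to 2.44, counting error only) and 1.41 times in GlastiKO (1.11 to 1.80). Astroglia of ECiKO replicate 2 had a median of 976 UMIs per cell, against 4554.5 in GlastiKO and 3753.5 in control. They carried 239 CPM of the choroid plexus list, whose cells held Notch2 in that library (47.5 CPM), against 96.9 CPM in GlastiKO and 61.4 CPM in control, and the part of depth and of those markers in the ratios was not tested. Notch1 was at 1.04 and 1.06 times control, with both intervals holding 1, and Jag1 in GlastiKO at 0.64 (0.46 to 0.87). Of 3684 astroglial genes with enough UMIs, 6.11% were more than 1.5-fold higher and 6.98% more than 1.5-fold lower in ECiKO, and of 6162 genes 5.62% and 3.28% in GlastiKO. The Notch2 ratio in ECiKO and the Jag1 ratio in GlastiKO lay past 1.5-fold.

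In oligodendrocytes, Dll1 was at 0.52 (0.32 to 0.83) of the control level in ECiKO and 0.50 (0.35 to 0.70) in GlastiKO. Notch1 stood at 0.53 (0.28 to 0.94) in ECiKO and 1.65 (1.20 to 2.30) in GlastiKO. Notch2 was at 2.15 (1.19 to 3.92) and Jag1 at 4.76 (1.59 to 17.0) in ECiKO, the second from 13 UMIs against 5 in control. Of 7891 genes in this class, 0.963% were more than 1.5-fold higher and 1.8% more than 1.5-fold lower in ECiKO. Of 8867 genes the shares were 0.835% and 1.06% in GlastiKO. Those genes had 100 UMIs or more in the 2 sums compared, which Dll1 reached in both groups and Notch1 in GlastiKO, and Notch2 and Jag1 did not reach. The shares were not matched to genes with as few UMIs as Dll1, which had 24 in ECiKO and 64 in GlastiKO against 84 in control. Both Dll1 ratios divide by that same control sum, so they are not independent of each other. Oligodendrocytes of ECiKO replicate 2 had a median of 781 UMIs per cell, against 17555.5 in GlastiKO and 15773 in control, and carried 354 CPM of astroglial markers, against 152 and 171 CPM. The part of depth and of those markers in the ratios was not tested.

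Around the members, other genes of the pathway were counted by list in the same 4 class contrasts, in which 38.8% (endothelial over astroglial), 22.1% (pericyte over endothelial), 67.9% (oligodendrocyte over astroglial) and 46.5% (progenitor over astroglial) of all genes passed. The counts of short lists are given beside these shares as a description, and several lie close to them. Of 6 targets, 0 were higher and 4 lower in endothelial than astroglial sums, led by Hes5, the target typical of neural stem cells and astroglia, with 457 CPM on average in astroglia and 0 UMIs in endothelial sums. Nrarp, a feedback inhibitor and target (-2.70), and Hey2 (-3.48) were lower as well, and Heyl had 0 endothelial UMIs. Hes1 and Hey1 did not pass, and they averaged more in endothelial than astroglial sums (263 against 111 CPM and 84.9 against 52.0 CPM). In pericytes, 4 targets were higher and 1 lower than in endothelial sums. Heyl averaged 346 CPM in pericytes, against 0 UMIs in endothelial sums, Hey2 112 against 1.74 CPM, Nrarp 153 against 19.1 CPM and Hes1 779 against 263 CPM, while Hey1 was lower (10.2 against 84.9 CPM). All 6 targets were lower in oligodendrocytes and in progenitors than in astroglia.

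Of the 3 fringe enzymes, which add sugars to Notch and alter its choice of ligand, Mfng and Lfng differed between endothelial and astroglial sums. Mfng averaged 46.8 CPM in endothelial sums with 0 UMIs in astroglia, and Lfng 44.3 CPM in endothelial sums against 265 CPM in astroglia (log2 -2.98 ± 0.344, edgeR adjusted p = 6.01e-17). Rfng averaged 18.8 CPM in endothelial sums and 25.1 CPM in astroglia and did not pass (log2 -0.41 ± 0.573, edgeR adjusted p = 0.626). Over the list of glycosylation and ligand-uptake genes, 1 was higher and 1 lower of 6 in endothelial over astroglial sums, 0 and 3 in pericyte over endothelial, 0 and 4 in oligodendrocyte and 2 and 3 in progenitor over astroglial sums. The 2 higher in progenitors were Mfng and Neurl1b, a ubiquitin ligase that acts on Notch ligands, at 34.7 and 54.7 CPM against 0 UMIs in astroglia. Of 11 processing genes, 2 were higher in endothelial than astroglial sums, the proteases Adam10 (315 against 73.6 CPM, log2 1.92 ± 0.248, edgeR adjusted p = 1.21e-13) and Adam17, and 1 was lower (Aph1b, a gamma-secretase subunit). In the pericyte, oligodendrocyte and progenitor contrasts, 0, 5 and 0 processing genes were higher and 3, 3 and 6 lower. Processing genes were thus called about as often as all genes.

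Of the 10 nuclear complex genes, 2 were higher and 1 lower in endothelial over astroglial sums, 1 and 0 in pericyte over endothelial, 4 and 2 in oligodendrocyte over astroglial and 3 and 2 in progenitor over astroglial sums, called no more often than all genes in the first 3 of these. Rbpj itself averaged 73.4 CPM in endothelial and 41.1 CPM in astroglial sums (log2 0.89 ± 0.363, edgeR adjusted p = 0.0379). Among 8 negative regulators tested, 1, 3, 1 and 1 were higher and 4, 1, 6 and 6 lower in the same 4 contrasts, with Dtx3, a Deltex family protein, at 331 CPM in pericytes against 32.0 CPM in endothelial sums. Of the less usual ligands, Egfl7, a secreted protein of endothelium that can bind Notch, averaged 1460 CPM in endothelial sums against 0.159 CPM in astroglia. Dner, a transmembrane ligand of neurons and glia, averaged 196.5 CPM in astroglia with 0 endothelial UMIs, and Cntn1 was lower in endothelium too, so that 1 of 3 was higher and 2 lower. In the pericyte, oligodendrocyte and progenitor contrasts, 0 of these 3 were higher and 1, 1 and 2 lower.

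Between the groups, 1 gene of all 6 lists passed in endothelial cells. Hey1, a target known in arterial endothelium, was higher in ECiKO over control (log2 1.37 ± 0.353, edgeR adjusted p = 0.0450), and 0 of 3 targets passed in GlastiKO. The Hey1 call was lost in DESeq2 (1.60, DESeq2 adjusted p = 0.9999), without those Plvap, Esm1 and Igfbp3 cells (1.28, edgeR adjusted p = 0.399), without the low-count filter (edgeR adjusted p = 0.0886), with 4 markers per cell (edgeR adjusted p = 0.0533) and with doublets kept (edgeR adjusted p = 0.0528). It was also lost in 5 of the 6 fits that leave out 1 library, the edgeR adjusted p lying between 0.0367 and 0.990. No gene of the lists passed in the arterial contrast beside Jag1 and Jag2.

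The genes whose level most resembled each member over the 16 sums were endothelial genes for Dll4 and Jag2. Likeness was Pearson's r of log2(CPM + 1) over 16 sums that share libraries and class composition, among 7513 genes. Dll4 was nearest to Fgd5 (0.996), the endothelial transcription factor Erg (0.982) and Tmem252 (0.981), and Jag2 to the endothelial transcription factor Sox18 (0.996), Lsr (0.996) and Arap3 (0.990). Notch4 was nearest to Akap13 (0.974), Tsc22d1 (0.968) and Fmnl3 (0.965). Notch3 was nearest to Asap2 (0.939), Lhfp (0.938) and Dtx3 (0.929), and Notch2 to Hlf (0.901), Slc9a3r1 (0.891) and Itsn1 (0.879). Notch1 and Jag1 shared 1 of their nearest genes, Trib2 (0.955 and 0.973), beside Spred2 (0.969) and Amotl1 (0.968) for Notch1 and Tnfrsf1a (0.961) and Zfp36l1 (0.955) for Jag1. Dll1 was nearest to Nars (0.902), Snrnp200 (0.890) and Pcbp2 (0.880). Among the members themselves, Dll4 and Jag2 (0.937) and Notch1 and Jag1 (0.927) were the most alike, and Notch3 and Dll1 the least (-0.63).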

How the data were processed

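The authors deposited unnormalized UMI counts of 32285 genes in 7433 cell barcodes of 6 libraries. They were made with Cell Ranger 5.0.0 on mm10 per the labels' protocols. Per the submitters' processing notes the tools were Cell Ranger 2.1.1 and Seurat 4, and which version holds is not settled here.

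Cells with at least 300 genes and at most 20% mitochondrial UMIs were kept (6323), and 49 Scrublet doublets (0.775%; scanpy 1.11.5, Python 3.11.15) were removed. A cell was assigned to a class when at least 3 markers of the class were detected, at a share at least 2 times that of every other of 15 lists, and to the arterial cells with at least 2 arterial markers. Counts were summed per library and class with at least 20 cells. Tests were edgeR 4.0.16 (R 4.3.3) quasi-likelihood tests after filterByExpr and TMM, with Benjamini-Hochberg adjustment over all genes and a threshold of 0.05. The group fit had 6 endothelial sums, 3 residual degrees of freedom and group as its only term; the class fit had 16 sums, 6 residual degrees of freedom and library as a block. Both fits share 1 pooled spread across genes, so p-values and standard errors (log2 fold change over the root of F) are weak guides to how 1 gene varies between libraries. DESeq2 1.42.0 was an alternative. The test was checked on simulated data. Intervals (exact, 95%) and floors (3 UMIs) cover counting error only.

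The members, gene lists and markers were chosen with earlier results of these data known. All 8 members are named, with the 3 genes most like each and up to 4 genes per pathway list by adjusted p, beside the targets, which are all named. The alternatives were another scaling, no filter, 2 or 4 markers, doublets kept, no block, each library left out, and settings added after the data were seen. The planned arterial test, with at least 20 cells, was not run because only 1 library reached that number.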

Additional observations from a re-analysis of the deposited data

Results flagged for a closer look

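Notch1 stood below control in endothelial sums and above control in the oligodendrocyte sum of GlastiKO. Both GlastiKO endothelial sums (325 and 325 CPM) lay below both control sums (360 and 353 CPM), whereas the GlastiKO oligodendrocyte sum was at 13.2 CPM against 8.02 CPM in control, a ratio of 1.65 (95% exact interval 1.20 to 2.30). The difference between the 2 classes was not tested, the oligodendrocyte ratio rests on 1 library per group, and in endothelial cells the fitted log2 value, -0.09, did not pass (edgeR adjusted p = 0.9996). It became 0.0014 when control replicate 1 was left out. Both GlastiKO libraries lay below both control libraries in 17.4% of all genes tested.

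Notch2 UMIs also appeared in cells outside the 5 classes. The 81 choroid plexus cells of ECiKO replicate 2 held 10 Notch2 UMIs (47.5 CPM, 95% exact interval 22.8 to 87.3), above the floor of 14.2 CPM that 3 UMIs give in this sum. The same cells held 2 UMIs each of Notch1 and Jag1 and 0 of the other 5 members.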

How the results depend on the processing

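Of the members' fold changes recomputed under other settings, 551 kept their direction and side of the threshold, 33 changed sign, 12 lost and 1 gained a call. Jag1 in endothelial over astroglial sums with no library block is counted as a sign change, though it also gained a call. A member that did not pass the low-count filter in a setting was not counted there, so Dll1 calls that went missing in this way are not among the 12. Genes called in ECiKO over control numbered 20, against 32 with the replicate block, 2 in DESeq2, 2 without cells with at least 2 of Plvap, Esm1 and Igfbp3 and 5 to 35 with 1 library left out. In GlastiKO over control they numbered 27, against 2 in DESeq2, 9 without those cells and 3 to 33. With 1 library left out, the counts were 2859 to 4779 for endothelial over astroglial (7477 with no library block), 1388 to 2698 for pericyte over endothelial, 3389 to 5477 for progenitor over astroglial and 47 to 271 for arterial cells (374 with no library block). Over all genes the deviations of same-numbered libraries correlated at 0.0402, 0.00326 and 0.101, under or near the 0.1 set for pairing, and the labels tie the numbers to no shared animal or day. The numbers are not neutral, since replicates 2 hold few endothelial cells and Dll4, Jag1 and Jag2 were lower there than in replicate 1 in all 3 groups. The replicate block gave Dll4 in ECiKO 0.79 (edgeR adjusted p = 0.464) and called 0 members in either group; it called 39 genes in GlastiKO.

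No value that changed sign had passed the test in the fits reported above. Notch2 in ECiKO was 0.13 in DESeq2, and without the Plvap, Esm1 and Igfbp3 cells Notch2 and Jag2 in GlastiKO were -0.012 and -0.052. Notch1 in endothelial over astroglial sums was -0.12 with DESeq2's size factors, -0.20 with no filter, -0.0066 with 4 markers, -0.018 with doublets kept and -0.26 in the libraries numbered 2. With no library block Jag1 there was 0.63 (edgeR adjusted p = 0.026), and Notch4 in progenitors 0.11, and arterial Notch1 was -0.026 with no filter. With 1 library left out, ECiKO values ranged between -0.66 and 0.38 (Notch1), -1.91 and 0.47 (Jag1), -0.20 and 0.065 (Notch2) and -1.48 and 0.16 (Jag2). GlastiKO values ranged between -0.17 and 0.0014 (Notch1), -1.34 and 0.18 (Jag1), -0.11 and 0.063 (Notch2) and -0.31 and 0.23 (Jag2). Class values ranged between -0.17 and 0.12 (Notch1, endothelial over astroglial), -1.61 and 1.72 (Jag2, oligodendrocyte), and -0.23 and 5.34 (Dll4), -2.49 and 0.049 (Jag2) and -0.97 and 0.36 (Notch4) in progenitors. Without the library block Dll1 in endothelial over astroglial sums kept its sign and gained a call (1.95, edgeR adjusted p = 0.0159). The cause of these changes was not tested. DESeq2's size factors moved the median of all genes to -0.27 in the endothelial, -0.13 in the pericyte and -0.38 in the oligodendrocyte contrast.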
